A study of Mus musculus with 2 samples.

Results

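The 9 genes described here, Igf2, H19, Dlk1, Mest, Peg3, Plagl1, Cdkn1c, Grb10 and Igf2r, are imprinted in the mouse, which means that the copy inherited from a single parent is expressed in most tissues, and all are tied to fetal growth. They were chosen by name. Array probes were assigned to them by the gene name in the scanner file or by the current symbol of the probe's transcript accession. All 9 were found, with 17 probes on 26 spots, and 16 of these probes were well above background in both lungs. They are 9 of the 21171 genes well above background in at least 1 lung.

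RNA came from the lung lobes of 1 embryo homozygous for the Foxj1lacZ allele (Foxj1 -/-) and from those of 1 heterozygous litter mate (Foxj1 +/-), both male, at E16.5, on an Sv129/CD-1 hybrid background. No wild-type lung was on the array, so both embryos carried at least 1 copy of the lacZ allele. Both RNAs were hybridised to 1 two-colour Agilent array, homozygous in Cy5 and heterozygous in Cy3, and no dye swap was made. Genotype and dye cannot be told apart in this layout. Since each genotype had 1 lung, the differences below carry no replicate check and no p-value. In such bulk tissue, fewer cells of a type and less RNA per cell cannot be told apart. Foxj1 itself, the driver of motile cilia formation that the allele disrupts, had a processed intensity of 78.1 in the homozygous lung, against 393 in the heterozygous lung. The main ratio used below, which is normalized by loess from the mean signals and not from these intensities, was −1.92 for Foxj1 (log2, homozygous over heterozygous).

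In textbook biology, imprinted growth genes fall into opposing camps. Paternally expressed genes such as Igf2, Dlk1, Mest, Peg3 and Plagl1 mostly favour growth of the fetus, while maternally expressed genes such as H19, Cdkn1c, Grb10 and Igf2r mostly restrain it. Several of them are abundant in fetal mesenchyme and are turned down after birth as growth slows, so their level changes with developmental stage.

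None of the 9 genes differed by 2-fold between the lungs. Across the array 2.46% of genes did so, 1.88% lower and 0.576% higher in the homozygous lung, so a count of 0 among 9 is close to that background. Every ratio below is on the log2 scale, with the homozygous lung over the heterozygous one. The main ratio was normalized by loess, a smooth curve through the ratio against brightness, and the scanner software's own deposited ratio is given beside it with the software's error. A gene's ratio is the median of its probes. The 9 ratios ran from −0.28 for Igf2r to 0.55 for Plagl1, with a median of 0.24, against a median of −0.00 and quartiles of −0.19 and 0.15 over all genes. Of the 9, 8 were above 0 and 1 was below. The largest, Plagl1, corresponds to 1.47-fold, and 91.1% of all genes had a ratio no farther from 0.

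Signal was ample for most of these probes. Their processed intensities ran from 186 to 55607 in the homozygous lung and from 105 to 50177 in the heterozygous lung, and no spot was saturated or set aside as an outlier. Brightness bears on the ratios, because among the brightest probes of the array the ratio was not centred on 0. For each probe the median ratio of all kept probes of other genes within 0.5 of its mean log2 intensity is therefore given below as the value for probes of like brightness, a comparison added after the data had been seen.

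**Figure D1:**
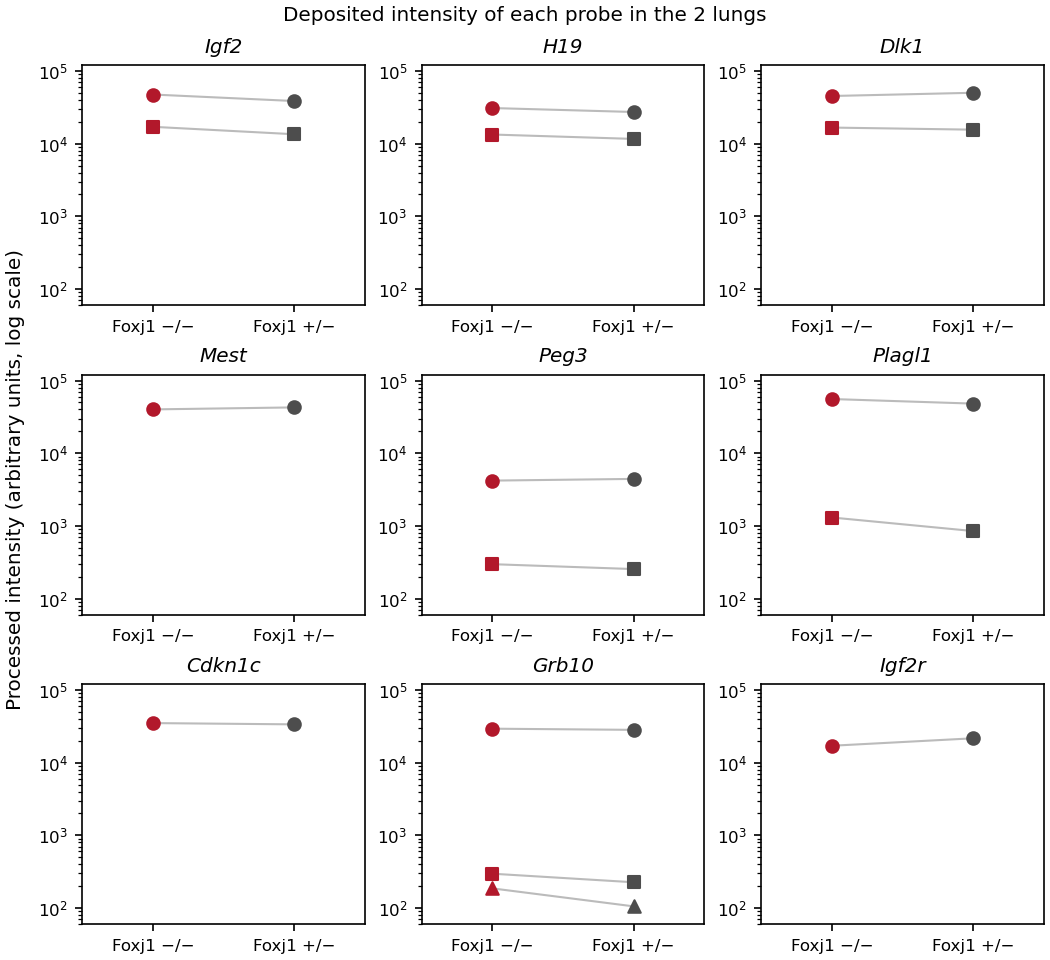
Deposited processed intensity (arbitrary units, log scale) of each kept probe of the 9 genes, with the Foxj1 -/- lung on the left and the Foxj1 +/- lung on the right of each panel. Symbols mark different probes of a gene and grey lines join the same probe; nearly level lines show that no gene differed by 2-fold, and Igf2r stood at 17103 in the homozygous and 21655 in the heterozygous lung.

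Igf2, the paternally expressed insulin-like growth factor of the fetus, had the second highest ratio, 0.45, or 1.37-fold. Its main probe (chromosome 7, 142460185 to 142460245 on the mm8 build, minus strand) was printed on 10 spots, which gives the only repeated measurement among these genes. Over the 10 spots the processed intensity was 47471 ± 2474 in the homozygous lung and 38633 ± 4038 in the heterozygous lung (SD over spots, which is technical). The lowest, median and highest spots were 43339, 47006 and 51005 in the homozygous lung, against 32083, 38959 and 43697 in the heterozygous lung. The ranges of intensity over spots overlapped narrowly, but within every spot the homozygous channel was the higher, by 1.16-fold to 1.35-fold in deposited signal. The loess ratio was 0.60 ± 0.06 over these spots, from 0.52 to 0.69, and the deposited ratio 0.30 ± 0.08.

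The coefficient of variation over the 10 spots was 5.21% in the homozygous lung and 10.5% in the heterozygous lung. Among all 114 probes with 10 spots that were above background, the SD of the ratio between spots had a median of 0.047 and a maximum of 0.11, so that of Igf2 was within the usual range.

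The other Igf2 probe (chromosome 7, 142460600 to 142460659) read 17069 in the homozygous lung and 13489 in the heterozygous lung. Its loess ratio was 0.30 and its deposited ratio 0.34 ± 0.21. Probes of like brightness had a median ratio of 0.30 for the repeated probe and −0.07 for the other. Relative to them the Igf2 probes therefore stood at 0.30 and 0.37, closer to each other than the uncorrected ratios of 0.60 and 0.30.

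Igf2r, the maternally expressed receptor that carries IGF2 to the lysosome for breakdown, was the single gene with a ratio below 0. Its probe (chromosome 17, 12525745 to 12525755 as the file lists it) read 17103 in the homozygous lung and 21655 in the heterozygous lung. The loess ratio was −0.28, or 1.22-fold lower, and the deposited ratio −0.34 ± 0.21. Probes of like brightness had a median of −0.03. Igf2 minus Igf2r was 0.73 on the log2 scale, with a combined software error of 0.29, on 1 array. With ratios centred on the array median in place of loess, Igf2r stood at 0.54, yet probes of like brightness then stood at 0.78, and Igf2r was again lower than they were, by −0.24.

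H19 is a maternally expressed non-coding RNA that shares enhancers with Igf2. A control region between them, methylated on the paternal copy, acts as an insulator where it is unmethylated, so that the enhancers serve H19 on the maternal copy and Igf2 on the paternal one. Its probes are shown because they report a transcript that has no protein. They are designed 60-base oligonucleotides from the scanner file, 5′ to 3′, with no base singled out. The first lies on chromosome 7 from 142385254 to 142385313 and the second from 142385503 to 142385650 (mm8, minus strand), a span of 148 bases and thus longer than the probe.
H19 probe A: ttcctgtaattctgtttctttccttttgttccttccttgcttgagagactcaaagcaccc
H19 probe B: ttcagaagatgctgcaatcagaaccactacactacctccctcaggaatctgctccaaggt

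Probe A read 30929 in the homozygous lung and 27293 in the heterozygous lung, and probe B read 13367 in the homozygous lung and 11630 in the heterozygous lung. The deposited ratios were 0.18 ± 0.20 and 0.20 ± 0.20, and the loess ratios 0.32 and 0.15. Both probes were slightly brighter in the homozygous lung, and each deposited ratio was within its own error of 0. As a gene H19 stood at 0.24. The difference between Igf2 and H19 was 0.21, smaller than the combined software error of 0.29, so these neighbours on chromosome 7 were not separated at this precision.

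Cdkn1c, a maternally expressed inhibitor of cyclin-dependent kinases, lies farther along the same arm of chromosome 7. Its probe (143268238 to 143268297) read 35055 in the homozygous lung and 33676 in the heterozygous lung. The loess ratio was 0.32 and the deposited ratio 0.06 ± 0.20, so the gap between these processings exceeded the deposited difference itself. Probes of like brightness had a loess median of 0.10 and a deposited median of −0.10, and Cdkn1c was 0.22 and 0.16 above them.

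Grb10 encodes an adaptor that binds the insulin and IGF1 receptors and restrains their signalling. The probes below are shown because they read different parts of the transcript. The first lies at 11870574 to 11870633 and the second from 11833580 to 11834228 on chromosome 11 (mm8, minus strand), across 649 bases.
Grb10 probe B: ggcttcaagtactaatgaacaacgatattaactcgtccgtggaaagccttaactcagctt
Grb10 probe C: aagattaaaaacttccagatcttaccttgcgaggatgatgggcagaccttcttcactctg

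The brightest Grb10 probe, probe A at 11830965 to 11831024, read 29363 in the homozygous lung and 28294 in the heterozygous lung. Probe B read 297 in the homozygous lung and 226 in the heterozygous lung. Probe C read 186 in the homozygous lung and 105 in the heterozygous lung. The probes did not give the same ratio. Their loess ratios were 0.20, 0.30 and 0.58, and their deposited ratios 0.05 ± 0.20, 0.39 ± 0.21 and 0.82 ± 0.22, higher the dimmer the probe. Probes of like brightness had loess medians from 0.01 to 0.02, so Grb10 stood above them by 0.19, 0.28 and 0.56. The gene value of 0.30 is that of probe B.

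Plagl1 encodes a zinc finger transcription factor, paternally expressed, that is known to act on other imprinted growth genes, and it had the highest ratio of the 9. Its bright probe (chromosome 10, 12821672 to 12821731) read 55607 in the homozygous lung and 48090 in the heterozygous lung. The other (12819862 to 12819921) read 1303 in the homozygous lung and 848 in the heterozygous lung. The loess ratios were alike, 0.54 and 0.57, but they stood against different surroundings. Probes as bright as the first had a median of 0.51, which leaves it 0.03 above them, whereas those as bright as the second had a median of 0.01, which leaves it 0.56 above. In the deposited ratio the probes were apart as well, at 0.21 ± 0.20 and 0.62 ± 0.21. Of the probes as bright as the second, 98.5% had a lower loess ratio.

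Peg3 is a large paternally expressed zinc finger protein with roles in growth and maternal care. The probe shown (chromosome 7, 6311815 to 6311874, mm8, minus strand) is given because it is the Peg3 probe with a positive ratio.
Peg3 probe B: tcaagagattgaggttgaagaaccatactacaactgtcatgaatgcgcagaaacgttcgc

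Probe B read 297 in the homozygous lung and 254 in the heterozygous lung, a loess ratio of 0.16. The brighter probe A (6310149 to 6310208) read 4195 in the homozygous lung and 4428 in the heterozygous lung, a loess ratio of −0.14. The probes were of opposite sign in the deposited ratio too, at 0.22 ± 0.21 and −0.08 ± 0.20, so no direction is given for Peg3, whose gene value was 0.01. A further probe under the name Peg3 read 3.82 in the homozygous lung and 4.81 in the heterozygous lung, was not well above background in either and was left out.

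Dlk1, a paternally expressed transmembrane relative of the Notch ligands, and Mest, a paternally expressed hydrolase-like protein of mesoderm, changed sign with the processing. A Dlk1 probe is shown (chromosome 12, 109908025 to 109908084, mm8, plus strand), since it and the brighter probe A (109908264 to 109908323) had deposited ratios of opposite sign.
Dlk1 probe B: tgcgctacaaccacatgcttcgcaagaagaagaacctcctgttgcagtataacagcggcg

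Dlk1 probe B read 16664 in the homozygous lung and 15587 in the heterozygous lung, and probe A read 45302 in the homozygous lung and 50177 in the heterozygous lung. The loess ratios were 0.11 and 0.18, and the deposited ratios 0.10 ± 0.20 and −0.15 ± 0.20. Probe A was the lower of its surroundings, since probes of like brightness had a loess median of 0.44. The probe of Mest (chromosome 6, 30698289 to 30698348) read 40026 in the homozygous lung and 42655 in the heterozygous lung. Its loess ratio was 0.19, its deposited ratio −0.09 ± 0.20, and probes of like brightness had a loess median of 0.34. For neither gene was a difference larger than the software error under loess or in the deposited ratio.

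**Figure D2:**
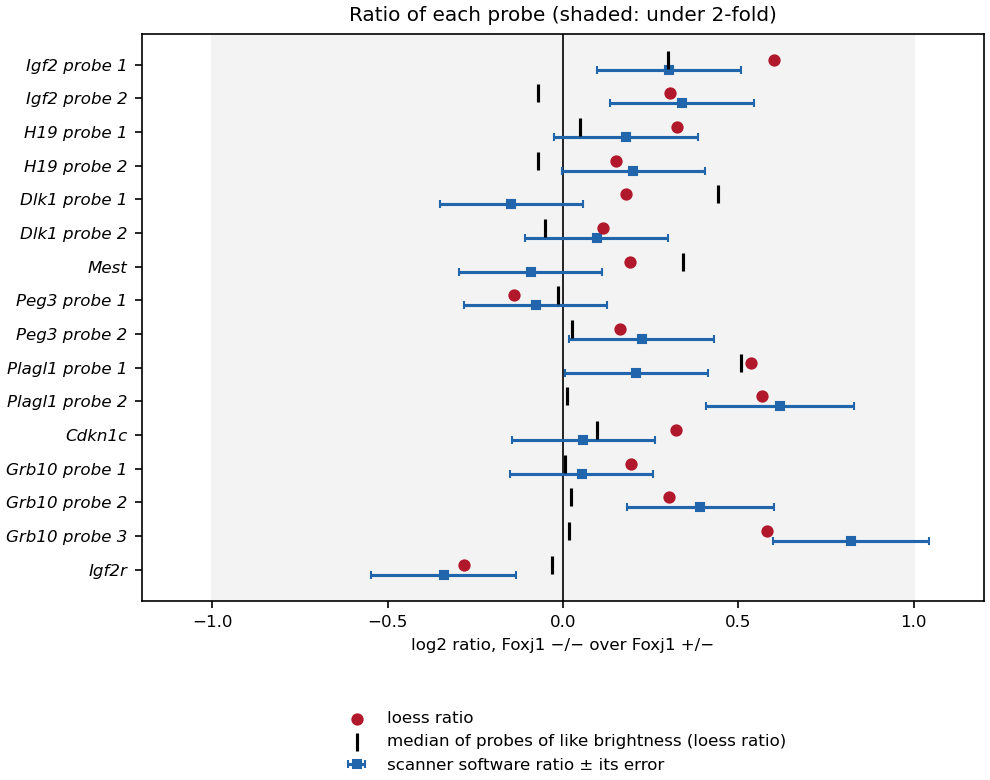
Log2 ratio of Foxj1 -/- over Foxj1 +/- for each kept probe of the 9 genes (rows; probes of a gene run from brightest to dimmest): red points are loess ratios, blue squares the scanner software's ratios with its error as bars, and black ticks the median loess ratio of probes of like brightness. All loess ratios lie inside the shaded zone under 2-fold, the bright probes of Dlk1 and Mest lie left of their ticks, and that of Plagl1 lies 0.03 to the right of its own.

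Taking the genes in order of ratio, Plagl1 (0.55) and Igf2 (0.45) led, followed by Cdkn1c (0.32), Grb10 (0.30), H19 (0.24), Mest (0.19), Dlk1 (0.15), Peg3 (0.01) and Igf2r (−0.28). The software error of each was 0.20 to 0.21, and neighbours in this order were closer to each other than that, except Peg3 and Igf2r. These differed by 0.29, as much as their combined error of 0.29. Ratios were more than 1 error from 0 for 6 of the 9 genes, against 34.9% of all genes, and more than 2 errors for 2, Plagl1 and Igf2. That error belongs to the deposited ratio, and with the deposited ratio itself Plagl1 stood at 0.41 and Igf2 at 0.32, so that 0 of the 9 were more than 2 errors from 0 and 4 more than 1, against 51.4% of all genes. Relative to probes of like brightness 0 were likewise more than 2 errors from 0, and 6 were more than 1. The share of all genes was computed neither for 2 errors nor for that comparison. The 5 paternally expressed genes had a median of 0.19 and the 4 maternally expressed genes a median of 0.27, and their ranges overlapped, 0.01 to 0.55 for the paternally and −0.28 to 0.32 for the maternally expressed genes. Parental origin of the RNA itself was not measured, since the probes do not tell the parental copies apart.

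Relative to probes of like brightness, Igf2 (0.34), Plagl1 (0.29), Grb10 (0.28), H19 (0.25) and Cdkn1c (0.22) stood above 0, Peg3 was at 0.01, and Dlk1 (−0.05), Mest (−0.15) and Igf2r (−0.25) stood below, with a median of 0.22. Of 16 kept probes, 12 stood above their surroundings and 4 below, and the counts were the same 12 and 4 with the deposited ratio and with centring on the array median. By contrast, without that comparison the number of probes above 0 was 14 with loess, 12 with the deposited ratio and 16 with median centring.

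**Figure D3:**
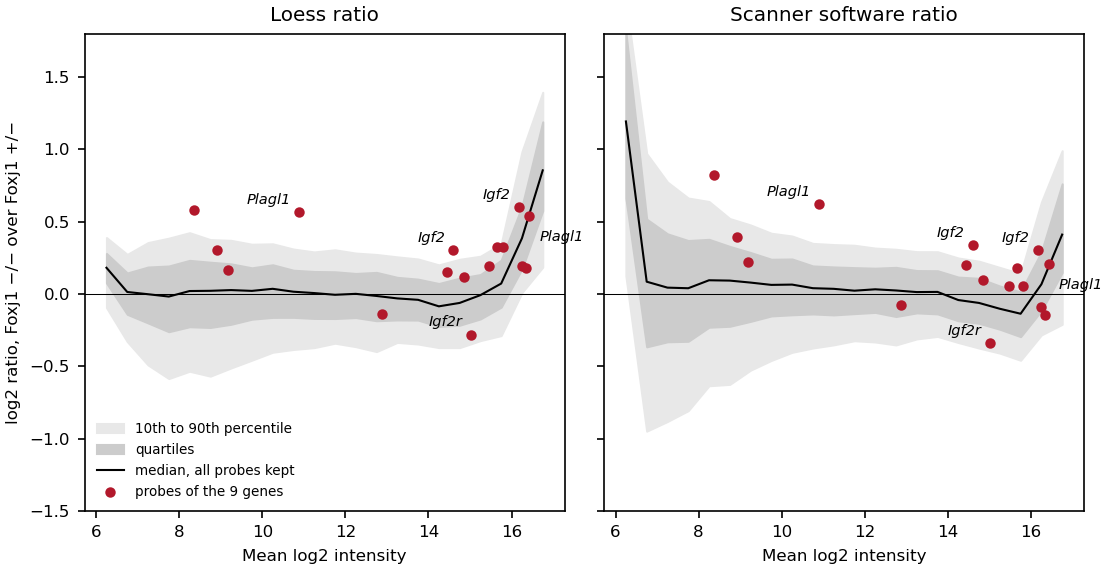
Log2 ratio of Foxj1 -/- over Foxj1 +/- against mean log2 intensity, for the loess ratio (left) and the scanner software's ratio (right). Red points are the 16 kept probes of the 9 genes, the black line and grey bands the median, quartiles and 10th to 90th percentiles of all kept probes in bins of 0.5; the median climbs at the bright end, where the repeated Igf2 probe (0.60 and 0.30) and the bright Plagl1 probe (0.54 and 0.21) lie.

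The regions around these genes on mm8 held no gene that differed by 2-fold in the loess ratio. Within 250 kb of Igf2, 5 other genes were above background, with ratios from −0.41 for Mrpl23 to 0.34 for Lsp1 and a median of 0.02. Around Dlk1 the neighbours Meg3 (0.18 ± 0.27) and Rian (0.04 ± 0.24), maternally expressed non-coding RNAs of the same domain, lay close to Dlk1 itself, and Dlk1 minus Meg3 was −0.03 with a combined error of 0.34. Around Cdkn1c, 13 genes had a median of 0.01, and 5 of them are in the list of maternally expressed genes below. Of these Kcnq1 (−0.47), Slc22a18 (−0.46), Phlda2 (−0.27) and Osbpl5 (−0.26) had ratios below 0, whereas Nap1l4 stood at 0.18, above 0 like Cdkn1c, with 3 probes from −0.04 to 0.47. Near Igf2r, Airn, the paternally expressed antisense RNA that silences a copy of Igf2r, stood at 0.48 ± 0.32, with its brightest probe at 41.1 in the homozygous lung and 26.0 in the heterozygous lung.

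Other imprinted genes were set beside the 9 as lists. The lists go by the parental copy assigned to each gene in any tissue, and imprinting in these lungs was not measured. Of 24 other paternally expressed genes on the array, 23 were above background, 22 of them in both lungs, 16 with a ratio above 0 and 7 below, and the median was 0.16. Magel2 (0.73 ± 0.24), Nap1l5 (0.58 ± 0.26), Snrpn (0.49 ± 0.21), which encodes a spliceosome protein of the Prader-Willi region, and Airn were highest. Sfmbt2 (−0.41 ± 0.32), a Polycomb group protein, Zrsr1 (−0.28 ± 0.21), Sgce (−0.21 ± 0.21) and Inpp5f (−0.05 ± 0.22) were lowest. Of 39 other maternally expressed genes on the array, 34 were above background, 33 of them in both lungs, 18 with a ratio above 0 and 16 below, and the median was 0.02. By the loess ratio Qpct, glutaminyl cyclase, was the only gene of either list past 2-fold, at −1.69 ± 0.26. It read 542 in the homozygous lung and 1795 in the heterozygous lung. Pon3 (−0.90 ± 0.22), a paraoxonase, Kcnq1 and Slc22a18 followed, and Cd81 (0.33 ± 0.20), Dhcr7 (0.31 ± 0.21), Mirg (0.29 ± 0.21) and Zim1 (0.28 ± 0.33) were highest. Cd81 is among the bright probes whose loess ratios were not centred on 0. It read 47987 in the homozygous lung and 46944 in the heterozygous lung, a deposited ratio of 0.03. By the deposited ratio of the brightest probe, Magel2 (1.14), Nap1l5 (1.10), Sfmbt2 (−1.07) and Calcr (−1.08) were past 2-fold too. So was Impact (1.05), which was above background in the homozygous lung only.

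The IGF pathway beyond Igf2 and Igf2r differed little. Of its 33 listed genes on the array 32 were above background, with 20 ratios above 0, 12 below, none past 2-fold and a median of 0.06. The IGF binding proteins, which hold the growth factors in the extracellular space, stood at both ends of the list. Igfbp2 (0.49 ± 0.21), Igfbp5 (0.45 ± 0.27) and Igfbp1 (0.40 ± 0.23) were highest, together with Igf2bp3 (0.35 ± 0.21), an RNA-binding protein of fetal tissue. Igfbp6 (−0.72 ± 0.21), which prefers IGF2 over IGF1, and Igfbp7 (−0.61 ± 0.21) were lowest, followed by the protease Htra1 (−0.41 ± 0.21) and Igf1 (−0.17 ± 0.21), whose 3 probes ran from −0.42 to 0.23. Igfbp7 read 16327 in the homozygous lung and 27076 in the heterozygous lung.

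Genes tied to the setting, keeping or erasing of imprints had a median of 0.18, or 0.06 with no filter on dim probes. Of 20 above background 17 had ratios above 0, among them Mbd3, which was above background in the homozygous lung only (39.9, against 19.9 in the heterozygous lung). Zfp57 (0.42 ± 0.23), the zinc finger protein that guards methylated imprints, Eed (0.37 ± 0.21) and Uhrf1 (0.34 ± 0.21) were highest, and Rb1 (−0.14 ± 0.41), Tet1 (−0.09 ± 0.21) and Smchd1 (−0.03 ± 0.21) lowest. None was past 2-fold by the loess ratio, where Mbd3 stood at 0.29 ± 0.41. By the deposited ratio Mbd3 was just past 2-fold.

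Because the level of these genes changes with stage, lists for fetal growth and for lung maturation were read beside them. Of 18 genes of the fetal growth programme, 17 had ratios above 0 and none was past 2-fold, with a median of 0.20. Mycn (0.48 ± 0.23), midkine, Mdk (0.40 ± 0.21), and Hmga2 (0.39 ± 0.21) were highest, although the 3 probes of Hmga2 ran from −0.69 to 0.43. The brightest Mdk probe read 55293 in the homozygous lung and 54819 in the heterozygous lung, a deposited ratio of 0.01, so its place rests on the loess ratio of bright probes. Mki67 (−0.06 ± 0.20), Ccnb1 (0.00 ± 0.20) and Arid3b (0.02 ± 0.22) were lowest. Of 24 lung maturation genes, 20 had ratios below 0 and 5 were at least 2-fold lower, with a median of −0.50. Lowest were Sftpb (−1.72 ± 0.26), Sftpd (−1.56 ± 0.26) and Sftpa1 (−1.54 ± 0.25), which encode surfactant proteins, and highest were Scd1 (0.45 ± 0.22), Lyz2 (0.38 ± 0.21) and Sftpc (0.33 ± 0.21). Sftpc, the brightest of these, read 88772 in the homozygous lung and 110304 in the heterozygous lung, so its deposited ratio was −0.31 and no direction is given for it. Both embryos carry the same age label, and whether a difference in stage moved with these values was not tested.

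The labels name the tissue as lung lobes and also as lung epithelium, and markers of epithelium and mesenchyme were both bright. All 12 epithelial markers were above background in both lungs, with a median ratio of 0.04, from −0.58 for Krt19 to 0.37 for Epcam. All 12 mesenchymal markers were as well, with a median of −0.01, from −0.79 for Eln to 0.48 for Col1a2. The brightest Col1a2 probe read 58260 in the homozygous lung and 51185 in the heterozygous lung, a deposited ratio of 0.19. The summed intensity of the mesenchymal markers was 208412 in the homozygous lung and 214047 in the heterozygous lung. The 10 endothelial markers had a median of −0.15, from −0.38 for Kdr to 0.13 for Tie1. Cartilage markers (median 0.12) ran from −0.29 for Cnmd to 0.30 for Matn3. With centring on the array median the medians of epithelium (0.63), mesenchyme (0.56), cartilage (0.49) and endothelium (0.45) were all above 0, and that of all genes was 0.22.

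Liver markers had ratios on the same side of 0 as most of the 9 genes. Of 9 on the array 8 were above background, 7 of them in both lungs and Apob in the homozygous lung only (15.7, against 10.2 in the heterozygous lung). Ratios were above 0 for 7, Apob included, and the median was 0.45, from −0.01 for Trf to 1.06 for Ahsg, which was past 2-fold. By the scanner software's ratio this median was 0.74, and in the deposited value table, the series matrix, 0.69. Their summed intensity was 4456 in the homozygous lung and 3092 in the heterozygous lung. Alb, the serum albumin gene, read 919 in the homozygous lung and 492 in the heterozygous lung, and Ttr was not above background in either. Mesothelial markers had a similar median of 0.45, with 6 of 8 above 0, from −1.58 for Msln to 0.74 for Bnc1. Their summed intensity was 17216 in the homozygous lung, against 24258 in the heterozygous lung. The 2 markers below 0 were the brightest of the list and weigh most in that sum. Msln read 1892 in the homozygous and 5582 in the heterozygous lung. Krt19, also an epithelial marker, read 11042.5 in the homozygous and 15783.5 in the heterozygous lung. Muscle (−0.31, from −3.52 for Myl7 to 0.57 for Myh3, which was above background in the homozygous lung only), erythroid (−0.50, from −1.73 for Alas2 to 0.88 for Hba-x) and neuroendocrine markers (−0.32, from −1.78 for Grp to 0.31 for Insm1, also above background in the homozygous lung only) had medians below 0. Of 16 muscle markers 7 were at least 2-fold lower in the homozygous lung, and their median was −0.71 with both channels required above background and −0.68 where each gene was read from its brightest probe. The part of these cells in the ratios of the 9 genes was not tested.

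**Figure D4:**
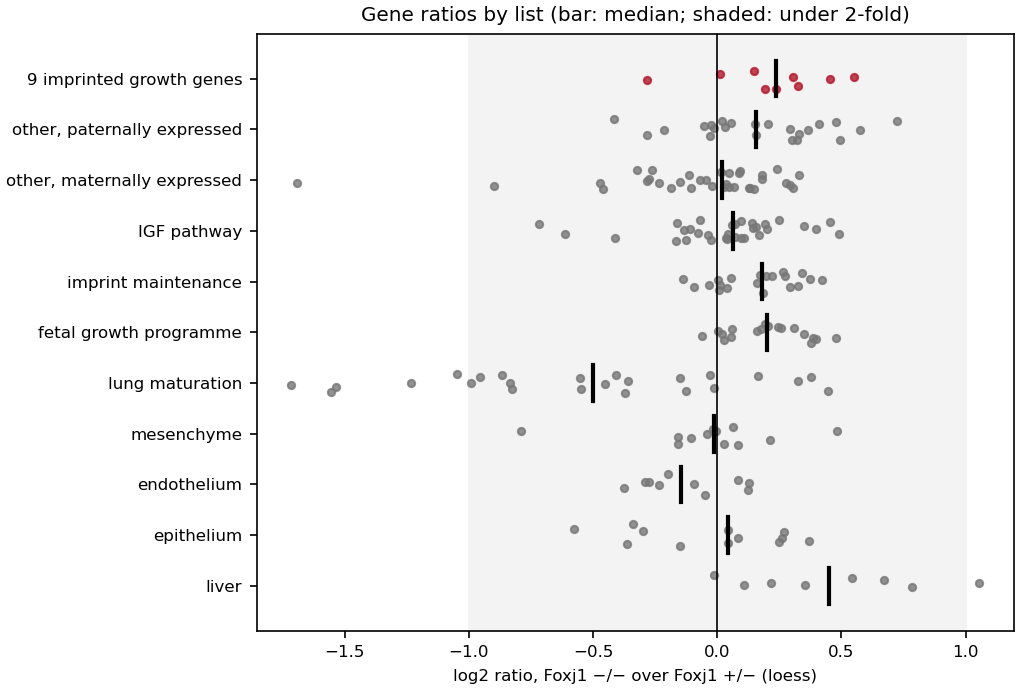
Log2 ratio (loess) of Foxj1 -/- over Foxj1 +/- for each gene above background in the 9 imprinted growth genes (red) and in lists set beside them (grey), with black bars at the medians. The 9 genes (median 0.24) lie inside the shaded zone under 2-fold, the lung maturation list (median −0.50) extends to −1.72, and the liver list (median 0.45) to 1.06.

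Promoters were searched for a forkhead core, TGTTTAC on either strand, as a description of the sequence. RefSeq promoters of 7 of the 9 genes were matched (GRCm38.p6, from 250 bases before to 50 after the start), 13 windows in all. The letters occur in 1 of them, that of Dlk1, and in 3.65% of all 32851 promoter windows.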

How the data were processed

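Lung lobe RNA of 1 homozygous and 1 heterozygous Foxj1lacZ embryo (100 ng each, amplified, per the labels' protocols) was hybridised to 1 two-colour array. The deposited scanner files, 2 identical copies, hold spot and background intensity on a linear scale. Their processed intensity was background-subtracted, detrended and dye-normalized (linear and LOWESS, factor 0.25) by the software, per the file headers. The deposited ratio is log10 of red over green processed signal with an error from the software's model, per the file headers, and is printed here as log2. The software was Agilent Feature Extraction 9.5.3.1, per the submitters' processing notes. A deposited value table, the series matrix, gives the same processed intensity times 1.68 with a floor of 15, found by comparison, for a reason that is unknown.

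Mean signals were corrected by normexp (offset 50) and loess-normalized in limma 3.58.1 under R 4.3.3, leaving control spots without weight. Summaries and plots used pandas 2.3.3, numpy 2.4.6 and matplotlib 3.10.9 under Python 3.11.15. Outlier spots (169 of 43379) were left out. Probes were kept when either channel was well above background on over a 0.5 share of their spots. The number of arrays limits the precision. Software errors come from the software's model and cover no variation between embryos or between arrays. They are not the measured noise between spots. For the repeated Igf2 probe the error was 0.21, against an SD over spots of 0.08 in the deposited ratio. Of 41174 probes, 24375 were named by accession, 6301 by symbol and 2426 by synonym, and 8072 kept the file's name. Named genes were all 9, plus from each list a set number of the highest and lowest ratios. For imprinted and IGF lists, any past 2-fold by the loess ratio or the brightest probe's deposited ratio were added. The genes and lists were chosen with earlier results of these data known. No test was run, and 9 other processings were tried, with a comparison to probes of like brightness added later.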

Additional observations from a re-analysis of the deposited data

How the results depend on the processing

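Among 9 other processings, the count of the 9 genes past 2-fold changed with 1, and their median moved by over 1.5 times with 3. With ratios centred on the array median in place of loess the median of the 9 was 1.06 and 6 of them were past 2-fold, against 4.85% of all genes. The median of all genes was then 0.22, and bright probes of any gene were higher still. Under the other alternatives the count was 0 and the median ran from 0.07, with the scanner software's ratio or the series matrix, to 0.24, or 0.22 relative to probes of like brightness, an alternative chosen after seeing the data. Igf2, Plagl1, H19, Cdkn1c and Grb10 kept a ratio above 0 under all alternatives. Dlk1 (−0.03) and Mest (−0.09) stood below 0 with the scanner software's ratio, and likewise relative to probes of like brightness (−0.05 and −0.15). Peg3 stood below 0 with its brightest probe (−0.14) or no filter on dim probes (−0.09). Igf2r stood above 0 with median centring (0.54). The cause was not tested. The array-wide count of genes at least 2-fold lower was 398 under loess, 302 under median centring, 773 without an offset and 1143 by the scanner software's ratio, and the matching count of higher genes was 122, 724, 221 and 593. Median centring moved 12 of 15 list medians by more than the software error. The medians of lung maturation (−0.12), erythroid (−0.26), neuroendocrine (−0.23) and muscle markers (−0.42) stayed below 0. The liver median moved by more than that error with the scanner software's ratio and the series matrix, and the muscle median with both channels above background and with the brightest probe. No paired analysis was possible because each genotype has 1 lung.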
